A study of Mus musculus with 7 samples.

Results

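The genes of the colony-stimulating factors and their receptors were followed through the cells of MMTV-PyMT mammary tumors. The 8 genes, of 33710 measured in all, were taken by symbol: the ligands Csf1, Il34, Csf2 and Csf3 and the receptor chains Csf1r, Csf2ra, Csf2rb and Csf3r. CSF1 and interleukin 34 both bind the receptor tyrosine kinase CSF1R, which macrophages need to survive and divide. GM-CSF, encoded by Csf2, binds an alpha chain (Csf2ra) that pairs with a beta chain (Csf2rb), and G-CSF, encoded by Csf3, binds CSF3R and drives the formation of neutrophils. In mammary tumors of this model, CSF1 is known as a growth factor for tumor-associated macrophages.

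Drop-seq, which captures single cells with barcoded beads in droplets and counts each mRNA molecule once by a unique molecular identifier (UMI), was run on 1 tumor from each of 7 mice. All 7 mice were MMTV-PyMT;HK2 f/f, in which the MMTV promoter drives the polyoma middle T antigen in mammary epithelium and both Hk2 alleles are floxed. Their genotype is labelled wild type, and by the study's methods they lacked the Cre and received tamoxifen as the Cre-carrying mice did. By the labels, each tumor was collected 3 months after it could be felt. Replicates 1 to 4 have titles of a CB series and replicates 5, 7 and 8 titles of a WT series, a split that the sources used here do not explain. The treatment text of the labels, which is the same for all 7, speaks of Hk2 deleted in the whole body by tamoxifen and ERT2Cre, against the wild-type genotype. Here the genotype was followed, and no tumors of another genotype were analysed, so that the comparisons below are between cell classes of the same mice.

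Of 37000 barcodes, 15047 had 200 to 6000 genes and were taken as cells, from 1133 to 4780 per mouse, with 962677 to 4471473 UMIs per mouse and a median of 527 to 694 UMIs per cell. Only 5 barcode sequences occurred in more than 1 tumor. Clusters built without the 8 genes gave 7 marker-defined classes with 13275 cells. These were 5553 tumor cells, 1702 hormone-sensing luminal cells, 1034 fibroblasts, 144 endothelial cells, 1871 C1q macrophages, 763 other myeloid cells and 2208 T or NK cells. Levels are given as the gene's UMIs per 1000000 UMIs of a class in 1 mouse (CPM), with the mean ± SD over mice holding at least 10 cells of the class. That was 7 mice for every class except the endothelial one, which had 3. The summed level of the 10 fibroblast markers was 50720 to 65543 CPM in fibroblasts and 30.6 to 370 CPM in tumor cells. The 10 C1q macrophage markers summed to 16121 to 20575 CPM in C1q macrophages and 1347 to 2911 CPM in the other myeloid class. That class, led by Retnla, Alox5ap, Napsa and Ccr2, was a mixture, and its dendritic cell markers (23267 to 42258 CPM) overlapped those of C1q macrophages (31900 to 48631 CPM). The tumor of replicate 8 stood apart, with fibroblasts as 35.5% of its cells against 2.16 to 7.79% in the other mice. The main results that rest on it are given with and without it.

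**Figure D1:**
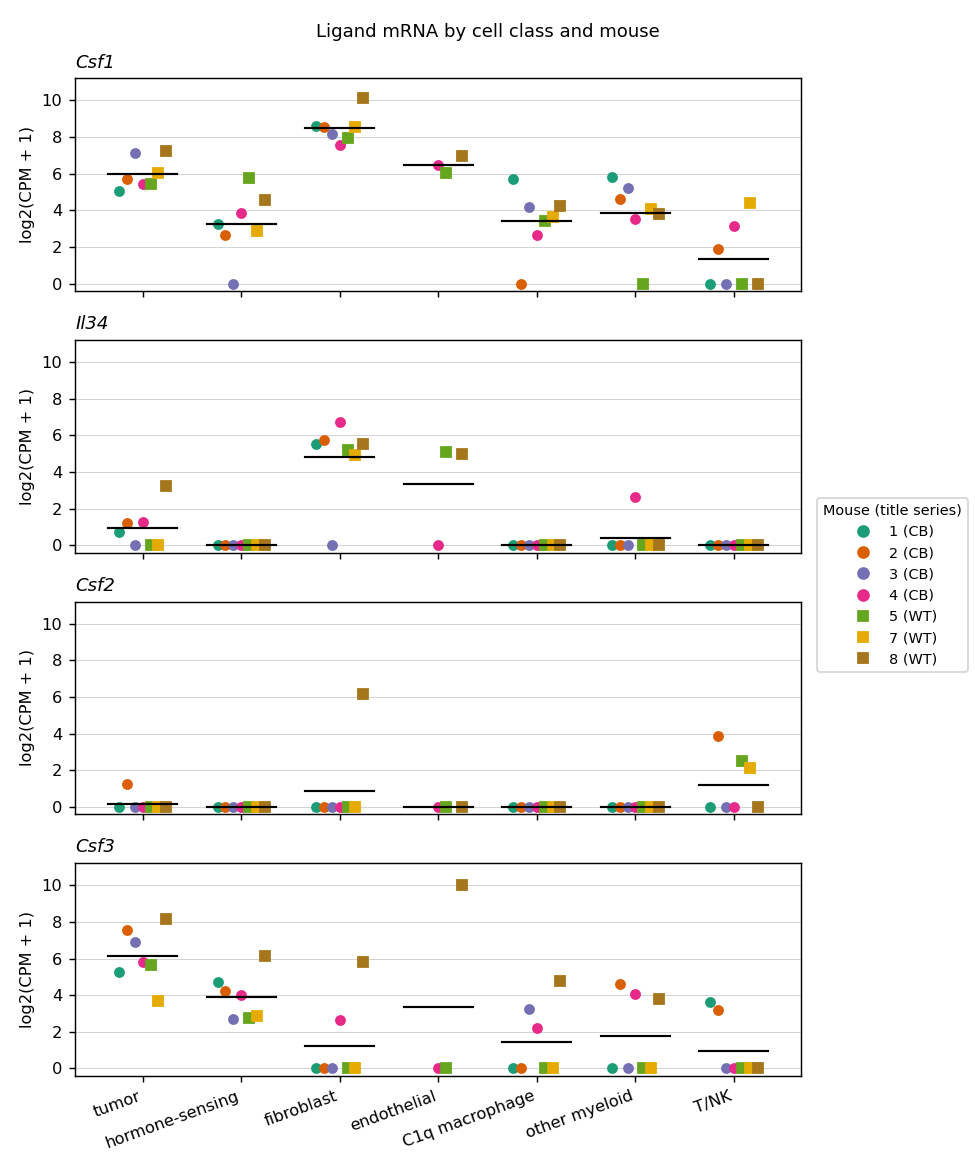
Levels of the 4 ligand mRNAs as log2(CPM + 1) in each of 7 cell classes, with 1 point per mouse (circles, CB series; squares, WT series) and a line at the mean of the log2 values. Csf1 was highest in fibroblasts of all 7 mice among the classes with 7 mice. Il34 was above 0 in fibroblasts of 6 mice, tumor cells of 4, endothelial cells of 2 and other myeloid cells of 1. Among fibroblasts, Csf2 was above 0 in replicate 8 alone, and Csf3 was above 0 in tumor cells of every mouse.

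Fibroblasts held the highest level of Csf1 mRNA among the classes present in all mice. In fibroblasts, Csf1 (chr3:107741048-107760469, minus strand, GRCm38) was 191 CPM in the lowest mouse, 368 CPM in the median mouse and 1126 CPM in the highest, replicate 8, a mean of 426 ± 317 CPM (SD, n = 7), or 309 ± 80.0 CPM (n = 6) without that mouse. In tumor cells it was 32.9 CPM in the lowest mouse, 51.0 CPM in the median and 151 CPM in the highest, again replicate 8. The mean was 74.6 ± 48.8 CPM (SD, n = 7), or 61.8 ± 38.5 CPM (n = 6) without that mouse. The fibroblast value was the higher one in each of the 7 mice and the 2 ranges did not overlap. The log2 fold change of fibroblasts over tumor cells was 2.70 (SE 0.25, adjusted p = 1.96e-14, edgeR quasi-likelihood test with mouse as block). Without replicate 8 it was 2.47 (adjusted p = 1.10e-11), and it was 2.36 within the CB series and 2.99 within the WT series. In this comparison 4 of the 5 genes that passed the filter on low counts were called at an adjusted p below 0.05, beside 51% of all 5254 genes tested. The 4 were Csf1, Csf3, Csf2ra and Csf2rb, the last on only 9 UMIs in each class.

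On average over mice, the other classes with 7 mice carried less Csf1 than tumor cells. The mean level was 15.6 ± 17.9 CPM in hormone-sensing cells, the luminal cells that carry estrogen and progesterone receptors. It was 16.1 ± 16.7 CPM in C1q macrophages, 21.9 ± 18.3 CPM in other myeloid cells and 4.37 ± 7.46 CPM in T or NK cells (SD, n = 7 each). Tumor cells were the higher class in every mouse with 3 exceptions, hormone-sensing cells of replicate 5 (52.8 against 42.3 CPM) and the C1q macrophages (51.4 CPM) and other myeloid cells (54.9 CPM) of replicate 1 (tumor cells 32.9 CPM). The log2 fold changes against tumor cells were -2.04, -2.18, -2.08 and -2.80 in the same order (SE 0.36, 0.43, 0.57 and 0.50; adjusted p = 4.86e-06, 1.95e-05, 0.00184 and 3.82e-06, edgeR). The call was lost for hormone-sensing cells within the WT series alone (log2 fold change -1.25) and for other myeloid cells within the CB series alone (-1.43). The genes called in these 4 comparisons were 32.1% (hormone-sensing), 54.8% (C1q macrophage), 47.3% (other myeloid) and 55.2% (T/NK) of all genes tested. Of the 5 members tested, 3 were called in hormone-sensing cells, 5 in each myeloid class and 3 in T or NK cells. A gene can pass the filter on low counts through a single class. Csf1r, Csf2ra and Csf2rb were highest in the myeloid classes, so the count of calls there is not a result about the members as a set.

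Endothelial cells gave 87.5, 65.5 and 122 CPM of Csf1 in replicates 4, 5 and 8, from 3, 2 and 4 UMIs, a mean of 91.7 ± 28.5 CPM (SD, n = 3). Replicates 1 and 2, with 5 and 9 endothelial cells, held 1 and 2 further UMIs and did not enter. In replicates 4, 5 and 8 tumor cells gave 41.7, 42.3 and 151 CPM. Endothelial cells were thus the higher class in replicates 4 and 5 and the lower in replicate 8. The log2 fold change of -0.12 (SE 0.70, adjusted p = 0.926, edgeR) did not pass the threshold, and its sign is opposite to the difference of the class means, so no direction is given. Among the 5 members tested, 1 was called in endothelial against tumor cells (Csf2ra, at 0 UMIs in endothelial cells), beside 22.9% of all genes tested.

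Barcodes with fewer than 200 genes can hold free RNA or shallow cells, in parts that were not measured, and their levels were set beside those of the classes. In them, Csf1 was 30.2 CPM in the lowest mouse, 36.8 CPM in the median and 261 CPM in the highest, which was again replicate 8. The fibroblast level exceeded that of the same mouse's low barcodes in 7 of 7 mice. The tumor cell level exceeded it in 4 of 7 mice, and the part of free RNA in the tumor cell level was not tested. At least 1 Csf1 UMI was found in 28.8% of fibroblasts (95% exact binomial interval 26.1 to 31.7%, median depth 699 UMIs) and in 5.69% of tumor cells (5.10 to 6.33%, 658 UMIs). In T or NK cells, which serve as a background, the share was 0.362% (0.157 to 0.713%, 419 UMIs). With every cell thinned to 300 UMIs the shares were 14.8%, 1.58% and 0.169%, in the same order, with shallower cells left out. These intervals cover counting error only, since the cells were pooled over mice. Replicate 8 gave 158 of the 298 fibroblasts with a Csf1 UMI. Fibroblasts with a Csf1 UMI ran from 32 of 220 cells in replicate 4 to 158 of 402 in replicate 8. The share without replicate 8 is not given.

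**Figure D2:**
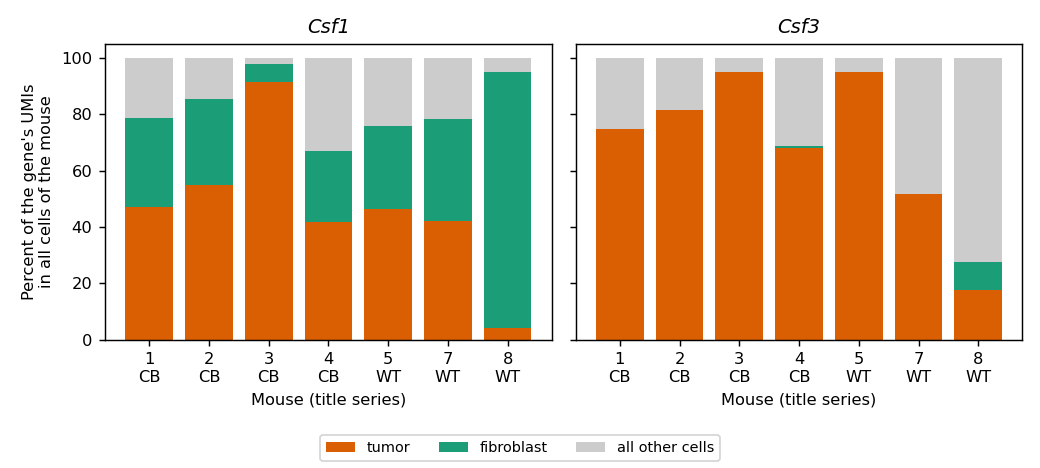
Percent of all Csf1 UMIs (left) and Csf3 UMIs (right) in the cells of each mouse that lay in tumor cells, fibroblasts and all other cells, as stacked bars per mouse. Tumor cells held 91.4% of the Csf1 UMIs of replicate 3 and fibroblasts 91.0% of those of replicate 8.

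Most Csf1 UMIs in cells lay in fibroblasts and tumor cells. Fibroblasts, with 6.87% of the cells and 6.36% of the UMIs, held 595 of the 1193 Csf1 UMIs (49.9%), and tumor cells held 430 (36.0%). Without replicate 8 the order turned, with 200 of 759 Csf1 UMIs in fibroblasts (26.4%) and 412 in tumor cells (54.3%). The shares differed widely between mice. The fibroblast share was 6.58% in replicate 3, 25.2 to 36.1% in replicates 1, 2, 4, 5 and 7, and 91.0% in replicate 8. The tumor cell share was 91.4% in replicate 3, 41.96 to 55.1% in replicates 1, 2, 4, 5 and 7, and 4.15% in replicate 8. Replicate 8 gave 395 of the 595 fibroblast UMIs and 402 of the 1034 fibroblasts.

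Among tumor cells, the Csf1 level varied between clusters. It was 132.5 ± 130.1 CPM (SD, n = 7) in the cluster led by Edn1, Csn1s1 and Krt14, and 41.7 to 83.1 CPM on average in the other 4 tumor clusters. Without replicate 8 it was 86.3 ± 48.8 CPM (SD, n = 6) in that cluster, and 44.3 to 75.7 CPM on average in the others. It was the highest of the 5 clusters in 5 of 7 mice, while another cluster was higher in replicate 2 (119 against 49.6 CPM) and in replicate 7 (93.0 against 60.9 CPM). This rank rested on few UMIs, with 3 in replicate 1 (65.1 CPM, next cluster 56.6 CPM) and 5 in replicate 5 (79.0 CPM, next cluster 75.2 CPM). In the cluster led by Edn1, Csn1s1 and Krt14, Csf1 ranged from 49.6 CPM in replicate 2 to 410 CPM in replicate 8. It was 183 CPM in replicate 3, which gave 374 of the 679 cells and 98 of the 135 Csf1 UMIs. PYMT was 687 CPM in that cluster, against 1367 to 2509 CPM in the other 4 tumor clusters and 915 CPM in the myoepithelial cluster. No test was made between clusters. With that cluster left out of the tumor class, an alternative added after the data were seen, the fibroblast against tumor cell log2 fold change was 2.95 (adjusted p = 3.04e-16, edgeR).

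Over the 45 sums of a mouse and class, the Csf1 level, as log2(CPM + 1), was most like that of Pros1 (Pearson r = 0.82), which encodes the anticoagulant protein S. Next came Ext1 (0.79), Lamc1 (0.78), Cald1 (0.78) and Adamts1 (0.78), which encode a heparan sulfate polymerase, a laminin chain, the actin-binding protein caldesmon and a matrix protease. The sums share mice and libraries, so these values only describe which of 5249 genes had a like pattern.

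Il34, the other ligand of CSF1R (chr8:110741829-110805924, minus strand), was sparse, and most of its UMIs lay in fibroblasts. Of its 66 UMIs in cells, 52 were in fibroblasts, 5 in tumor cells, 2 in endothelial cells and 5 in the myoepithelial cluster outside the 7 classes. In fibroblasts it was 0 CPM in replicate 3, 45.5 CPM in the median mouse and 106 CPM in replicate 4, a mean of 44.8 ± 32.1 CPM (SD, n = 7). It was higher in fibroblasts than in tumor cells in 6 of 7 mice and at 0 in both in the other. The mean difference was 3.89 in log2(CPM + 1) (exact two-sided sign-flip test, p = 0.03125, adjusted p = 0.28125 over 18 tests of the members under the filter). Its size depends on the added value, being 1.99 with 10 CPM added in place of 1. None of these 18 tests passed after adjustment, and 2 had an unadjusted p below 0.05. With 1 mouse at 0 in both classes, 0.03125 was the smallest p that this test could give. Such a p could pass only if most of the 18 tests were as low, so the adjusted p cannot decide this comparison. Il34 overlaps exons of Gm15894 and Gm15895 on the other strand. Since the strand used in counting is not given in the sources used here, their reads cannot be told apart.

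Csf2, the gene of GM-CSF (chr11:54247271-54249667, minus strand), was detected in only 33 UMIs. The fibroblasts of replicate 8 held 25 of them, in 15 of 402 cells (71.3 CPM), and the fibroblasts of the other 6 mice held 0. A further 7 UMIs lay in T or NK cells (5 in replicate 2, 1 in replicate 5 and 1 in replicate 7), all in the 298 cells of the cluster led by Il17a, Cd163l1, Icos and Trdc. The last UMI was in a tumor cell. The exact two-sided sign-flip tests (smallest p = 0.25, adjusted p = 0.5625) cannot decide on differences between classes, since most mice were at 0 in both classes. In T or NK against tumor cells only 3 mice differed, and 0.25 was the smallest p that the test could give. In fibroblasts against tumor cells only 1 mouse was higher and 1 lower. Csf2 overlaps an exon of Gm12223 on the other strand, with the same limit as for Il34.

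Tumor cells carried the G-CSF gene Csf3 (chr11:98701263-98703629, plus strand) in every mouse. Their Csf3 level was 11.6 CPM in the lowest mouse, 54.8 CPM in the median and 286 CPM in the highest (replicate 8). The mean was 105.8 ± 98.4 CPM (SD, n = 7), or 75.8 ± 63.8 CPM (n = 6) without that mouse. The tumor cell level was above that of the same mouse's barcodes under 200 genes (0 to 51.6 CPM) in 7 of 7 mice. Tumor cells held 482 of the 752 Csf3 UMIs (64.1%), and 448 of 559 (80.1%) without replicate 8. Their share was 51.6 to 95.2% in the other 6 mice and 17.6% in replicate 8. There the cluster led by hemoglobin genes held 28.5% and the unnamed cluster led by Saa2 held 22.8%. These 2 clusters carried PYMT at 2717 and 2093 CPM, against 687 to 2509 CPM in the clusters named as tumor cells. The tumor cell share thus depends on how they are named. Of the tumor cells, 5.08% had at least 1 (95% exact binomial interval 4.52 to 5.69%) against 0.0906% of T or NK cells (0.0110 to 0.327%).

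Csf3 was lower than in tumor cells in all 5 other classes with 7 mice. Its mean was 20.7 ± 22.4 CPM in hormone-sensing cells, 8.50 ± 20.2 CPM in fibroblasts, 5.49 ± 9.72 CPM in C1q macrophages, 7.42 ± 9.76 CPM in other myeloid cells and 2.80 ± 4.88 CPM in T or NK cells (SD, n = 7 each). The log2 fold changes were -2.47, -3.02, -4.01, -3.43 and -4.32 in that order (largest adjusted p = 1.29e-06, edgeR). The median mouse was at 15.4 CPM in hormone-sensing cells and at 0 CPM in each of the other classes lower than tumor cells. Replicate 8 was the highest mouse in hormone-sensing cells (68.7 CPM) and C1q macrophages (26.3 CPM). Fibroblasts were at 0 in 5 of the 7 mice, at 5.31 CPM (1 UMI) in replicate 4 and at 54.2 CPM (19 UMIs) in replicate 8. Without replicate 8 the fibroblast against tumor cell log2 fold change was -4.87 (adjusted p = 5.31e-08).

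Endothelial Csf3 rested on 1 mouse. The level was 0, 0 and 1037 CPM in replicates 4, 5 and 8, with 34 UMIs in 7 of the 31 endothelial cells of replicate 8. A single cell held 17 of these UMIs. Replicate 3, with 3 Csf3 UMIs in only 2 endothelial cells, did not enter. The log2 fold change of endothelial over tumor cells was 0.52 (SE 0.51, adjusted p = 0.528, edgeR) and turned to -7.32 (adjusted p = 0.0358) without replicate 8, where the remaining endothelial cells of the fit were at 0.

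**Figure D3:**
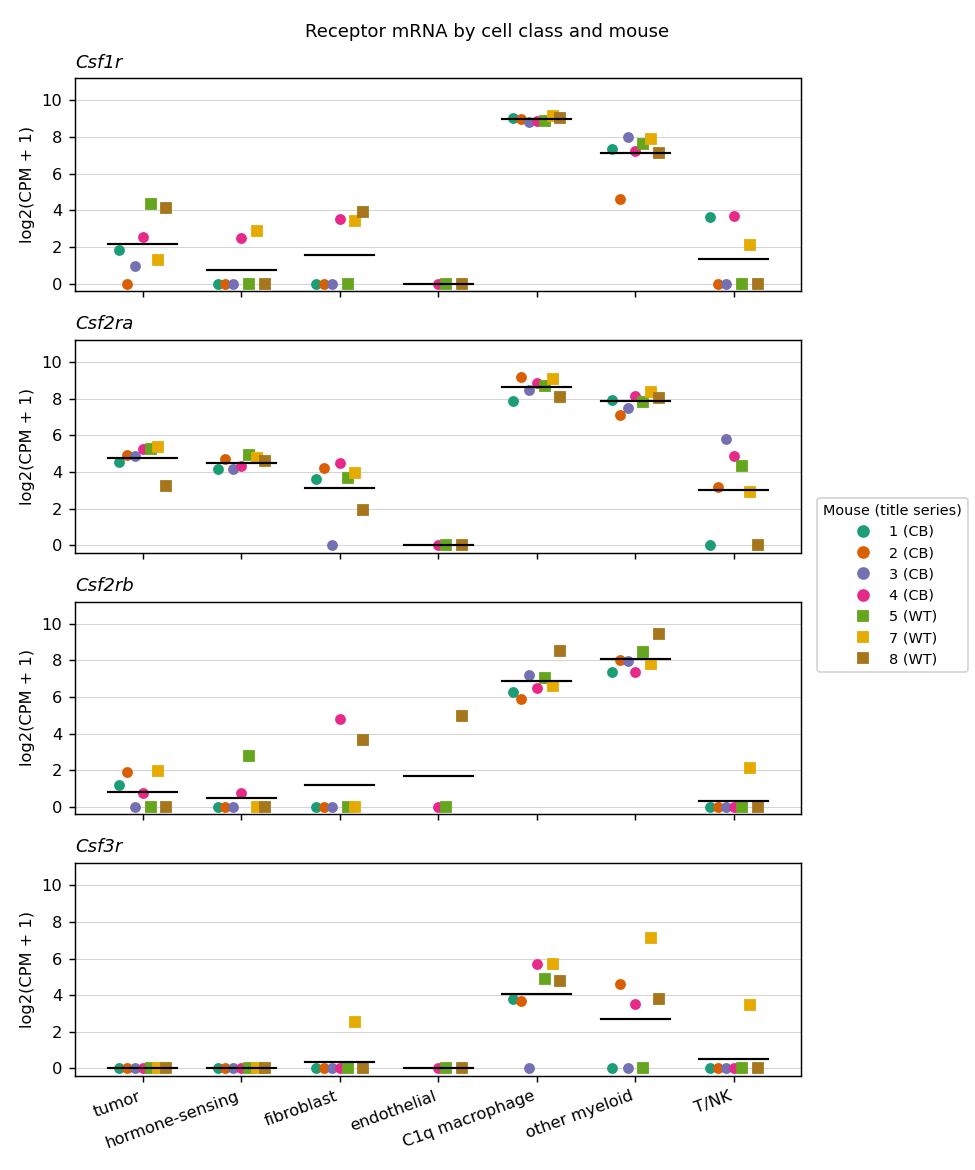
Levels of the 4 receptor mRNAs as log2(CPM + 1) in each of 7 cell classes, with 1 point per mouse (circles, CB series; squares, WT series) and a line at the mean of the log2 values. Csf1r was 452 to 569 CPM in C1q macrophages of all 7 mice, and Csf2ra and Csf2rb were highest in the 2 myeloid classes.

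The receptors lay in the myeloid classes. Csf1r (chr18:61100598-61132149, plus strand) was 452 CPM in the lowest, 511 CPM in the median and 569 CPM in the highest mouse in C1q macrophages, a mean of 504 ± 43.2 CPM (SD, n = 7). These cells held 703 of its 846 UMIs. In other myeloid cells it was 23.2 CPM in the lowest mouse (1 UMI in replicate 2), 165 CPM in the median and 252 CPM in the highest, a mean of 165 ± 75.2 CPM (SD, n = 7). The ranges of the 2 classes did not overlap. Tumor cells were at 6.56 ± 8.01 CPM (SD, n = 7). Endothelial cells had 0 Csf1r UMIs, which allows up to 26.1 CPM.

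Csf1r was higher in C1q macrophages than in tumor cells by a log2 fold change of 6.90 (SE 0.29, adjusted p = 6.61e-28, edgeR) and in other myeloid than in tumor cells by 4.99 (SE 0.39, adjusted p = 2.15e-16). Between the myeloid classes, Csf1r was higher in C1q macrophages by 1.91 (SE 0.27, adjusted p = 1.15e-07). That difference was 2.11 within the CB series and 1.62 within the WT series. Of the 5 members tested between the myeloid classes, 3 were called (Csf1r, Csf2ra and Csf2rb), beside 13.6% of all genes tested, 8.81% higher and 4.83% lower in C1q macrophages. These members were highest in the myeloid classes and could pass the filter through them, so this count is not a result about the members as a set. At least 1 Csf1r UMI was found in 29.1% of C1q macrophages (95% exact binomial interval 27.1 to 31.2%), 9.70% of other myeloid cells (7.69 to 12.0%) and 0.378% of tumor cells (0.234 to 0.578%). Thinned to 300 UMIs, the shares were 14.9%, 5.12% and 0.0810%. The direction depends on how cells are classed. With classes taken from each cell's own marker UMIs, 82.7% of the C1q cluster cells counted as other myeloid, and the log2 fold change was -0.30 (adjusted p = 0.483). Csf1r overlaps Hmgxb3 on the other strand.

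The 2 clusters of C1q macrophages both carried Csf1r, at 519 ± 66.02 CPM in the cluster led by H2-M2, Zmynd15 and Ccl3 and 453 ± 169 CPM in that led by Ccl8, Pf4 and Gpnmb (SD, n = 7 each). Csf2ra was 466.3 ± 158 and 256 ± 112 CPM in the same clusters, and Csf2rb 134 ± 98.4 and 145 ± 122 CPM. These values were not tested, since the clusters were cut from the same cells.

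Csf2ra, the GM-CSF binding chain (chr19:61223957-61228429, minus strand), was found in both myeloid classes of every mouse. In C1q macrophages it was 231 CPM in the lowest, 418 CPM in the median and 580.2 CPM in the highest mouse (mean 409 ± 131 CPM, SD, n = 7). In other myeloid cells it was 139, 247 and 327 CPM (mean 237 ± 62.4 CPM, SD, n = 7). The ranges overlapped, and C1q macrophages were the higher class in 6 of 7 mice, replicate 1 being the exception. The log2 fold change was 0.96 (SE 0.19, adjusted p = 1.19e-04, edgeR). It was 1.12 within the CB series (adjusted p = 0.00429) and 0.70 within the WT series, where the call was lost (adjusted p = 0.261). With classes taken from each cell's own marker UMIs the direction turned, to -0.83 (adjusted p = 0.0232).

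Tumor cells carried 29.1 ± 11.17 CPM of Csf2ra (SD, n = 7), from 225 UMIs. This lay below the level in the barcodes under 200 genes (55.2 to 133 CPM) in all 7 mice, and the part of free RNA in it was not tested. The log2 fold changes over tumor cells were 3.92 in C1q macrophages (adjusted p = 1.12e-26) and 2.97 in other myeloid cells (adjusted p = 1.24e-17, edgeR). The log2 fold changes of the classes lower than tumor cells were -0.71 in hormone-sensing cells (adjusted p = 0.0273), -1.29 in fibroblasts (adjusted p = 0.00434) and -1.24 in T or NK cells (adjusted p = 0.00132, edgeR). The hormone-sensing call was fragile, being lost with DESeq2 (adjusted p = 0.0895), without the filter on low counts (0.109), without the mouse block (0.222), within either series alone (0.0602 and 0.694), without replicate 4, 5 or 7 (0.244, 0.0546 and 0.0517) and with classes from each cell's own markers (0.118). The fibroblast call was lost with DESeq2 (0.0585) and within the CB series alone (log2 fold change -1.01, adjusted p = 0.169), and the T or NK call within the CB series alone (0.0569). Endothelial cells had 0 UMIs of Csf2ra, which allows up to 26.1 CPM.

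Csf2rb, the signaling beta chain of the GM-CSF receptor (chr15:78325752-78353847, plus strand), had the opposite order between the myeloid classes. It was 58.0 CPM in the lowest, 97.5 CPM in the median and 359 CPM in the highest mouse in C1q macrophages (mean 137 ± 103 CPM, SD, n = 7). In other myeloid cells it was 164, 252 and 681 CPM (mean 298 ± 181 CPM, SD, n = 7). The ranges overlapped, but other myeloid cells were the higher class in each of the 7 mice, and replicate 8 was the highest mouse in both. Without that mouse the mean was 99.5 ± 32.5 CPM in C1q macrophages and 234 ± 69.2 CPM in other myeloid cells (SD, n = 6 each). The log2 fold change of C1q macrophages over other myeloid cells was -0.91 (SE 0.25, adjusted p = 0.00794, edgeR with mouse as block). It was the same size without replicate 8 (-0.91, adjusted p = 0.0293). Without the mouse block it was -0.95 and no longer called (adjusted p = 0.0770). Within the CB series it was -0.83 (adjusted p = 0.299) and within the WT series -1.04 (adjusted p = 0.0701).

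Of the other myeloid cells, 15.5% had a Csf2rb UMI (95% exact binomial interval 12.97 to 18.2%), against 7.54% of C1q macrophages (6.38 to 8.83%) and 0.144% of tumor cells (0.0622 to 0.284%). Thinned to 300 UMIs, the first 2 shares were 9.50% and 2.98%. These shares pool cells over mice. Replicate 8 gave 39 of the 118 other myeloid cells and 29 of the 141 C1q macrophages with a Csf2rb UMI, and shares without it are not given. The log2 fold changes over tumor cells were 6.16 in C1q macrophages (adjusted p = 1.59e-22) and 7.08 in other myeloid cells (adjusted p = 1.52e-24, edgeR), against a tumor cell sum of 9 UMIs. The fibroblast against tumor cell difference of 1.94 (adjusted p = 0.0118) rested on 9 UMIs in each class and was 0.64 without replicate 4, where it was not called. It was also not called without the filter on low counts (1.80), within the WT series alone (1.01) or with the clusters led by Saa2 and by hemoglobin genes added to the tumor class (1.21).

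Csf2rb has a close paralog, Csf2rb2, the beta chain specific to interleukin 3 in mice. The transcripts share 28.0% of the 31-base words of Csf2rb and 1.28% of those in its last 500 bases, the end that Drop-seq reads. Csf2rb2 was 50.7 ± 27.1 CPM in C1q macrophages (59 UMIs) and 43.1 ± 19.95 CPM in other myeloid cells (19 UMIs; SD, n = 7 each). Its difference of 0.19 in log2(CPM + 1) went in 3 mice one way and in 4 the other (exact two-sided sign-flip test, p = 0.5625).

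Csf3r, the G-CSF receptor gene (chr4:126024550-126044440, plus strand), was sparse. C1q macrophages held 52 of its 71 UMIs in cells and other myeloid cells 13. Barcodes under 200 genes, which were not classed, held 48 of the 119 Csf3r UMIs in all barcodes, against 143 of 989 for Csf1r. The Csf3r level was 0 CPM in the lowest, 26.3 CPM in the median and 50.7 CPM in the highest mouse in C1q macrophages (mean 25.8 ± 19.4 CPM, SD, n = 7). In other myeloid cells it was 0, 10.6 and 140.2 CPM (mean 26.7 ± 50.8 CPM, SD, n = 7). In the barcodes under 200 genes it was 0 to 45.7 CPM (mean 21.6 CPM), and C1q macrophages were above those of the same mouse in 5 of 7 mice. The classes overlapped throughout, C1q macrophages being higher in 4 mice and lower in 2 (mean difference 1.35 in log2(CPM + 1), exact two-sided sign-flip test, p = 0.21875, adjusted p = 0.5625). With 10 CPM added in place of 1 the mean difference was 0.49. Tumor cells, which held most Csf3 UMIs, had 0 Csf3r UMIs among 7026485, which allows up to 0.427 CPM. Csf3r was higher in C1q macrophages than in tumor cells in 6 of 7 mice and at 0 in both in the other. The exact two-sided sign-flip test on log2(CPM + 1) gave p = 0.03125 (adjusted p = 0.28125), the smallest p it could give here. No size is given, since with 0 UMIs in tumor cells the added 1 CPM would set it. Neutrophils, which carry CSF3R, formed no class of their own. The neutrophil markers summed to 398 to 6806 CPM in the other myeloid class and 51.4 to 441 CPM in C1q macrophages.

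**Figure D4:**
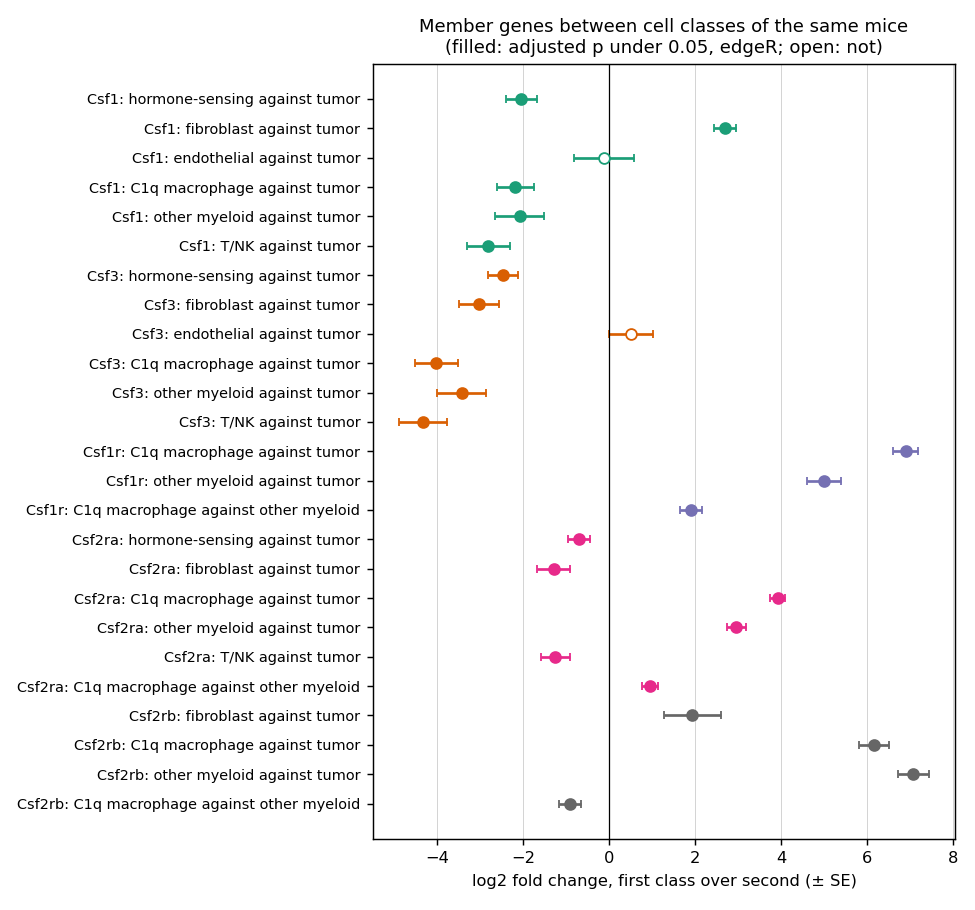
Log2 fold change ± SE of the members between cell classes of the same mice, for the 25 comparisons with a printed fold (edgeR, filled points adjusted p below 0.05, open points not). Points right of 0 were higher in the first class named, led by the myeloid receptors Csf2rb, Csf1r and Csf2ra over tumor cells. The 2 open points are the endothelial comparisons of Csf1 and Csf3.

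Promoter sequences of 2 receptor genes found in the myeloid classes, Csf2ra and Csf3r, are shown from RefSeq (GRCm38.p6), from 250 bases before to 50 bases after the start. Capitals mark GAGGAAG, a core of sites of the myeloid transcription factor PU.1, searched with its other strand CTTCCTC. The windows are chr19:61228369-61228668 (minus strand) for Csf2ra, where the 2 matches share 1 base, and chr4:126024409-126024708 (plus strand) for Csf3r.
Csf2ra: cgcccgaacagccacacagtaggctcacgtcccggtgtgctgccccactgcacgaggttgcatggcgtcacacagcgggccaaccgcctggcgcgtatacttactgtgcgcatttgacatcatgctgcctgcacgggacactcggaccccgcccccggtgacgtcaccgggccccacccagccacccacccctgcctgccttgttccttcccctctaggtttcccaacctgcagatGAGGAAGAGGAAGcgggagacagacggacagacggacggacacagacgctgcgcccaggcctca
Csf3r: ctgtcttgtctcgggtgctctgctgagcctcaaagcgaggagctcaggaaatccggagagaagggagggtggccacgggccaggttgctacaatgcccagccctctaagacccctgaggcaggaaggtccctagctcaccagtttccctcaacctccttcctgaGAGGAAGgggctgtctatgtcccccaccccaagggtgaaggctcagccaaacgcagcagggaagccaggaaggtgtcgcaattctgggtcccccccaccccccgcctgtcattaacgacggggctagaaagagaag
The motif was in 13.6% of 32851 promoter windows of this length. It was not in the windows of Csf1 and Csf2, and that of Csf2rb2 held 2. No RefSeq window was found for Il34, Csf3 and Csf2rb. Csf1r was left out of the search, so whether its window holds the motif is not given. A match is a description of the letters, and binding was not measured.

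Over the 45 sums, Csf1r was most like Ccr1 (Pearson r = 0.94), a chemokine receptor, and then Cd300c2 (0.94), Pld4 (0.93) and Slamf9 (0.92). As for Csf1, this describes a pattern over classes that share mice and libraries.

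Genes that act next to the receptors were read from 6 lists. Over all genes the median log2 fold change was 0.10 in C1q macrophages against other myeloid cells and -0.11 in C1q macrophages against tumor cells, where 26.5% of all genes tested were higher and 28.3% lower. Of the 15 adaptors and kinases downstream of CSF1R, 11 passed the filter. Between the myeloid classes, 3 were higher in C1q macrophages and 1 lower, beside 8.81% and 4.83% of all genes, with a list median of 0.27. Tyrobp, the adaptor DAP12, was 2974 ± 401 against 1982 ± 682 CPM (log2 fold change 0.87, adjusted p = 0.00550). Mapk3, the kinase ERK1, was 80.4 ± 29.6 against 39.9 ± 30.3 CPM (1.19, adjusted p = 0.00809). Fyn, a Src-family kinase that was also found in T or NK cells at 160.2 ± 104 CPM, was the lower gene (-2.02, adjusted p = 0.00136; all edgeR, SD, n = 7). Against tumor cells, 8 of the 11 were higher in C1q macrophages and 1 lower (median 1.81). The counts were also 8 higher and 1 lower in other myeloid cells (median 2.56, beside 21.6% and 25.8% of all genes), and 7 higher and 2 lower in T or NK cells (median 1.09, beside 25.8% and 29.4%). They were 2 and 1 in fibroblasts (median 0.54, beside 25.4% and 25.7%), 1 and 2 in hormone-sensing cells (median 0.24, beside 15% and 17.1%) and 3 and 1 in endothelial cells (median 0.22, beside 11.1% and 11.9%).

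Of 9 myeloid transcription factors, 8 passed the filter, and 3 were higher in C1q macrophages than in other myeloid cells and none lower (median 0.37), beside 8.81% and 4.83% of all genes. Maf was 253 ± 121 against 56.3 ± 28.7 CPM (log2 fold change 2.41, adjusted p = 2.00e-09), and Cebpa 109.7 ± 56.2 against 36.0 ± 34.9 CPM (2.01, adjusted p = 2.31e-04; edgeR, SD, n = 7). Spi1, which encodes PU.1, was 351 ± 61.4 against 412 ± 98.8 CPM and not called (adjusted p = 0.941). Its fitted log2 fold change of 0.06 has the opposite sign to the difference of these means, so no direction is given. Against tumor cells, Spi1 was higher in C1q macrophages by a log2 fold change of 6.43 (adjusted p = 2.00e-25), as were 5 of the 8 factors in all (median 2.88, beside 26.5% of all genes). In other myeloid cells 5 were higher as well (median 0.94, beside 21.6%), and in T or NK cells 2 were higher and 5 lower (median -0.999, beside 25.8% and 29.4%). In fibroblasts 4 were higher and 0 lower (median 0.64, beside 25.4% and 25.7%). Hormone-sensing cells gave 2 higher and 2 lower (median -0.67, beside 15% and 17.1%), and endothelial cells also 2 and 2 (median -0.18, beside 11.1% and 11.9%).

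Of the 11 genes of the JAK-STAT branch used by the GM-CSF and G-CSF receptors, 8 passed the filter. Cish, a STAT5 target that dampens cytokine signaling, was lower in C1q macrophages than in other myeloid cells, at 17.8 ± 12.1 against 64.7 ± 45.5 CPM (-1.58, adjusted p = 0.0104), and the other 7 were not called (list median -0.44, beside 13.6% of all genes called). In fibroblasts against tumor cells, 5 of the 8 were higher and 1 lower (median 1.33), beside 25.4% and 25.7% of all genes and a median of -0.09. The other classes gave 6 higher and 0 lower in T or NK cells (median 1.37, beside 25.8% and 29.4% of all genes), 4 and 0 in other myeloid cells (median 1.21, beside 21.6% and 25.8%), 4 and 2 in C1q macrophages (median 0.90, beside 26.5% and 28.3%), 3 and 2 in hormone-sensing cells (median 0.0061, beside 15% and 17.1%) and 3 and 0 in endothelial cells (median 0.76, beside 11.1% and 11.9%).

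Of the 5 genes for other interleukin 34 receptors and CSF1 shedding, 3 passed the filter (median 0.61 between the myeloid classes, where 8.81% of all genes were higher and 4.83% lower). Against tumor cells, 2 were higher and 0 lower in hormone-sensing cells (median 2.09) and in fibroblasts (median 0.84), 2 and 1 in C1q macrophages (median 0.94), 1 and 1 in other myeloid cells (median 0.12), 1 and 0 in endothelial cells (median 0.57) and 0 and 1 in T or NK cells (median -0.28), beside the shares of all genes given above. Adam10, a membrane protease, was the 1 gene called between the myeloid classes, higher in C1q macrophages than in other myeloid cells (143.8 ± 16.0 against 86.1 ± 24.0 CPM, log2 fold change 0.83, adjusted p = 0.0264). Adam17, the protease known to shed membrane-bound CSF1, was higher in fibroblasts than in tumor cells, at 32.1 ± 16.2 against 14.6 ± 6.63 CPM (1.33, adjusted p = 0.00174, edgeR). Among the other growth factors and the other receptors, 1 of 5 genes passed the filter in each list, Kitl and Kit. Kitl, the ligand of KIT, was higher in fibroblasts than in tumor cells (90.4 ± 38.6 against 55.0 ± 46.8 CPM, 0.92, adjusted p = 0.00946), and was not called between the myeloid classes (-0.72). Against tumor cells it was also higher in hormone-sensing (0.66) and endothelial cells (1.96), and lower in C1q macrophages (-2.45), other myeloid cells (-1.73) and T or NK cells (-2.35). Kit was lower in C1q macrophages than in other myeloid cells (13.3 ± 14.6 against 34.2 ± 33.3 CPM, -1.70, adjusted p = 0.0375, from 19 and 26 UMIs). Against tumor cells Kit was lower in every class (-3.86 to -1.41) except endothelial cells, where it was not called (-1.67).

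**Figure D5:**
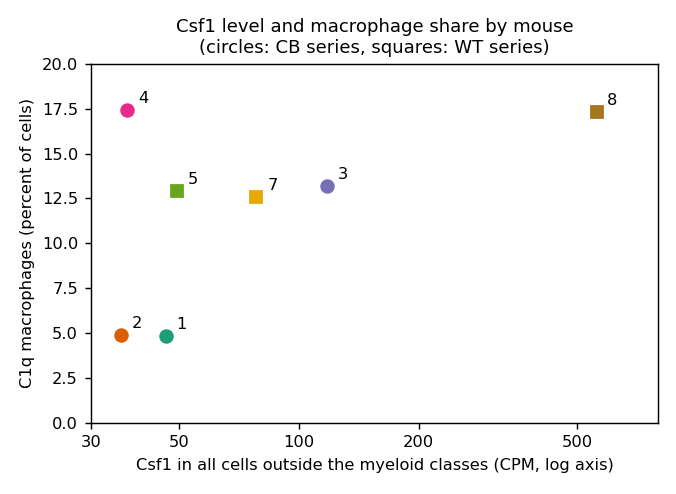
Csf1 level of all cells outside the myeloid classes (CPM, log axis) against the C1q macrophages as percent of cells, with 1 point per mouse (number, replicate; circles, CB series; squares, WT series). Replicate 8 lies far to the right at 559 CPM, and replicate 4, at 37.0 CPM, has a macrophage share of 17.4%, close to that of replicate 8.

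Whether mice with more Csf1 outside the myeloid classes had a larger share of C1q macrophages was examined over the 7 mice. Csf1 ranged from 35.7 to 559 CPM, and C1q macrophages from 4.83 to 17.4% of cells. Pearson's r was 0.49 (exact permutation p = 0.395) and Spearman's rho 0.36 (exact permutation p = 0.444). Without the 2 mice farthest from the median Csf1 level, replicates 8 and 3, r was 0.18 (n = 5, exact permutation p = 0.833). It was 0.69 without replicate 4 (exact permutation p = 0.0194) and 0.27 without replicate 8 (exact permutation p = 0.639), so that the value turned on single mice. The 2 series, with 4 and 3 mice, were too small for a value within each. This was 1 relation with 2 coefficients, and neither passed the threshold before adjustment.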

How the data were processed

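The authors made and sequenced 1 Drop-seq library per mouse, aligned its reads to mm10 plus the PyMT sequence, and deposited 1 matrix of UMI counts (genes by barcodes, raw and not normalized) for each of the 7 control tumors. The submitters' processing notes name FastQC and STAR and the human builds GRCh37.p13 and hg19, whereas the methods give mm10. Gene positions are those of GENCODE for GRCm38, which is mm10. Mitochondrial genes, present in 2 of the matrices, were removed.

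Barcodes with 200 to 6000 genes were kept, and no doublet caller was run. Cells were clustered with Seurat 5.3.0 (R 4.3.3; 20 principal components, 30 neighbors, resolution 1.0) on 584 variable genes, from which the members were left out. Each cluster was named by its best-scoring marker list, the score being the mean log2 ratio of a list's levels to their cluster median. A score of at least 1 and at least 3 markers found in at least 10% of the cells were required, and a name was withheld where a different list supplied more of the cluster's 10 leading genes. The scoring was settled with the clusters already in view, and the authors' own names may differ. The classes come from other genes of the same cells.

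UMIs were summed per mouse and class (at least 10 cells) and compared in 1 fit over all classes with edgeR 4.0.16 (TMM, quasi-likelihood test with mouse as block, 5254 genes left by filterByExpr, Benjamini-Hochberg threshold 0.05). The mouse pairs the classes by construction, since the sums of all classes come from the same mice. Il34, Csf2 and Csf3r did not pass the filter and were compared by exact sign-flip tests on log2(CPM + 1), including the Csf3r comparison planned for edgeR. With all mice, no fold is given where a comparison was not called and both classes had fewer than 50 UMIs, or where a class had 0, a rule set after the counts were seen. Replicates are separate mice. Fitted fold changes use the TMM-scaled library sizes and weigh mice by their counts, so that they can differ from ratios of the mean CPM. Python 3.11.15, numpy 2.4.6, scipy 1.17.1 and pandas 2.3.3 were used. All members were named, with the 5 genes most like Csf1 and Csf1r and, of each pathway list, the genes called between the myeloid classes (at most the 3 with the largest change). Some genes that this rule names are not reported here. Tyrobp, Spi1, Adam17 and Kitl were named outside this rule, after their values were seen. The members and lists were chosen with earlier results of these data known. Alternatives were DESeq2 1.42.0, no filter, no block, at least 20 cells per class, each series alone, each mouse left out, 9 components, resolution 0.6, at least 500 genes, members kept for clustering, classes from each cell's own markers, a pseudocount of 10 CPM and thinning to 300 UMIs. Chosen after seeing the data, the tumor class was also taken without the cluster led by Edn1, Csn1s1 and Krt14, or with the clusters led by Saa2 and by hemoglobin genes.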

Additional observations from a re-analysis of the deposited data

Results flagged for a closer look

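Dixon's criterion for a value far from the others was applied to 18 groups of mice. Chance meets it in about 1 in 20 groups of independent, normally distributed values. These groups share mice, and some hold values at 0, so that rate does not carry over to them. In 6 of the 18 groups the highest mouse was set apart, and it was replicate 8 each time. For ligands, this mouse had 1126 CPM of Csf1 in fibroblasts (next mouse 386 CPM), 71.3 CPM of Csf2 in fibroblasts (next 0 CPM), 54.2 CPM of Csf3 in fibroblasts (next 5.31 CPM) and 68.7 CPM of Csf3 in hormone-sensing cells (next 25.2 CPM, on 3 UMIs against 3). For receptors, it had 359 CPM of Csf2rb in C1q macrophages (next 145 CPM) and 681 CPM in other myeloid cells (next 349 CPM). The same mouse had the largest fibroblast share of its cells (35.5%), and whether these values go together was not tested.

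Members were also found outside the 7 classes. The unnamed cluster led by Saa2, Saa1, Npy and S100a8, acute-phase and inflammation genes, held 89 UMIs of Csf3, 49 of Csf1 and 31 of Csf2ra in 590 cells. Its best-scoring list was that of tumor cells (score 3.796, 8 markers found, PYMT at 2093 CPM), but another list supplied more of its 10 leading genes, so it was left without a name. In replicate 8 its Csf3 level was 1793 CPM, from 44 UMIs. The cluster led by hemoglobin genes held 62 UMIs of Csf3, 14 of Csf1, 14 of Csf2ra and 9 of Csf2rb, with PYMT at 2717 CPM, and 55 of the Csf3 UMIs were from replicate 8. The myoepithelial cluster held 24 UMIs of Csf1, 5 of Il34, 5 of Csf2ra and 4 of Csf2rb, and the B and plasma cell cluster 5 of Csf3 and 4 of Csf2ra. Barcodes under 200 genes held 201 UMIs of Csf1, 12 of Il34, 6 of Csf2, 57 of Csf3, 143 of Csf1r, 193 of Csf2ra, 85 of Csf2rb and 48 of Csf3r.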

How the results depend on the processing

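Of 555 alternative values of the member comparisons, 518 kept their direction and side of the threshold, 24 lost the call and 13 turned. Among the main results, the Csf1 comparisons of fibroblast and T or NK cells with tumor cells and the Csf1r comparison with tumor cells kept their call under every alternative run. Endothelial against tumor cell Csf1, never called, turned from -0.12 to 0.41 with DESeq2, 0.14 without the mouse block, 0.53 in the CB series alone, 0.12 without the cluster led by Edn1, Csn1s1 and Krt14, and -0.45 to 0.34 with 1 mouse left out (0.06 without replicate 3, 0.34 without replicate 8). The Csf2rb call between the myeloid classes was lost without the filter (-0.83, adjusted p = 0.0698), without the block (-0.95), in the CB (-0.83) and WT series alone (-1.04), and with classes from each cell's markers (-0.91). By that last setting Csf1r turned to -0.30, Csf2ra to -0.83 (adjusted p = 0.0232) and Csf3r to -2.83 in log2(CPM + 1), since 82.7% of C1q cluster cells then counted as other myeloid and made up 55.0% of that class. Endothelial Csf3 turned from 0.52 to -7.76 in the CB series alone and to -7.32 without replicate 8 (range with 1 mouse left out, -7.32 to 0.85). Fibroblast Csf2 turned to -0.31 in the CB series alone and -0.20 without replicate 8 (range -0.20 to 1.03). The r of Csf1 and the macrophage share was 0.27 to 0.69 with 1 mouse left out. Without the block, the hormone-sensing Csf2ra call was also lost, and no other member call printed was. With 9 components or at least 500 genes no other myeloid class was found, and its comparisons could not be run.

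Without the filter, calls over all genes were 3085, 4995, 5169, 4021 and 5417 for hormone-sensing, fibroblast, C1q macrophage, other myeloid and T or NK against tumor cells (1687, 2680, 2879, 2486 and 2901 with it). In the WT series alone they were 505, 1658 and 580 for hormone-sensing, fibroblast and endothelial cells, 1597 and 1722 for other myeloid and T or NK cells, and 265 between the myeloid classes. In the CB series alone they were 534 for endothelial cells and 460 between the myeloid classes, and 736 for endothelial cells without replicate 4 (1204 and 717 with all mice). DESeq2 moved the median of all genes in fibroblasts against tumor cells from -0.09 to 0.21, with 1717 calls higher and 853 lower (edgeR 1332 and 1348), and in endothelial cells from -0.31 to 0.17, with 850 and 219 (edgeR 581 and 623). With few UMIs per cell, counts below about 50 per class limit Il34, Csf2 and Csf3r.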

Other observations

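Beyond the genes named by rule, Lif was the gene whose level over the 45 sums of a mouse and class was most like that of Csf3 (Pearson r = 0.82, the next gene, Dennd2d, 0.66). Lif encodes leukemia inhibitory factor, a cytokine of the interleukin 6 family. This pair was looked up after the data were seen, and the sums share mice and libraries. The genes most like Csf2ra were Rassf4 (0.84), Fgd2 (0.83), Cd68 (0.83), Alox5ap (0.83) and Wfdc17 (0.83).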
